A study of Mus musculus with 24 samples.

Results

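Nucleotide synthesis was followed through 10 genes: Ppat, Gart, Paics, Atic, Impdh1 and Impdh2 of the purine route, Cad, Dhodh and Umps of the pyrimidine route, and Pnp, which acts on purine nucleosides in salvage and breakdown. They were taken by symbol from the 55414 genes of the count table, of which 25030 had a count, and all 10 were among the 10566 that passed the filter on low counts. The RNA came from splenic Tconv CD4+ cells (CD4+ CD25-), isolated by negative magnetic selection for CD4 and removal of CD25+ cells. The mice were conplastic: all carried C57BL/6J nuclear DNA, combined with C57BL/6J mtDNA (mtDNA B6, named WT in the sample labels) or with the mtDNA of the NZB strain (mtDNA NZB). Cells of each haplotype were left resting or were activated with beads that carry CD3 and CD28 antibodies together with IL-2, for 72 h according to the methods of the study. Each of the 4 groups, resting and activated mtDNA B6 and resting and activated mtDNA NZB, holds 6 libraries. The labels give no age or sex for these samples and do not say whether a library is 1 animal, so the p-values measure the spread between libraries. Haplotype is carried by 1 conplastic strain each, so a difference between haplotypes is a difference between these strains.

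Proliferating lymphocytes need purines and pyrimidines for RNA, DNA and cofactors, and can make them de novo or recover them by salvage. In the purine route, Ppat commits phosphoribosyl pyrophosphate to the pathway, the multifunctional enzymes Gart and Paics build the ring, and Atic closes it to inosine monophosphate, the branch point to adenine and guanine nucleotides. Impdh1 and Impdh2 are isozymes that oxidise inosine monophosphate towards guanine nucleotides, and Impdh2 is the one usually linked to lymphocyte proliferation. In the pyrimidine route, Cad carries out the opening steps in the cytosol, Dhodh oxidises dihydroorotate at the inner mitochondrial membrane and passes the electrons to coenzyme Q, and Umps makes uridine monophosphate.

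In GRCm39, Ppat and Paics lie head to head on chromosome 5, Ppat on the minus strand at chr5:77061096-77099436 and Paics on the plus strand at chr5:77099139-77116370, and their annotated genes share 298 bases at the 5′ ends. Cad is on the same chromosome, at chr5:31212111-31236418. Gart (chr16:91416576-91444536) and Umps (chr16:33774077-33787429) are both on chromosome 16. Atic is at chr1:71596294-71619241, Impdh1 at chr6:29200429-29216363, Impdh2 at chr9:108437485-108442783, Dhodh at chr8:110317492-110335347 and Pnp at chr14:51168473-51190869. The libraries read the 3′ end of polyadenylated RNA, so the annotation of the last 1000 transcript bases bears on the counts. There, Impdh2 lies over Ndufaf3, a protein-coding gene on the opposite strand, and 777 of its 951 stretches of 50 bases (81.7%) also occur in its processed copy Impdh2-ps. Impdh2-ps itself held 445 UMI counts in all libraries together, against 8695 for Impdh2. Gart lies over a long noncoding RNA on the opposite strand. Of the 951 stretches at the end of Paics, 21 (2.21%) also occur in other genes, the member Dhodh among them. For Atic this holds for 1 stretch (0.11%). None of the 951 stretches at the end of Pnp occurs in its neighbour Pnp2, 2579 bases downstream, whereas 123 of the 951 at the end of Pnp2 (12.93%) occur in Pnp, so counts of Pnp2 are the less certain.

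Promoters were read from RefSeq (GRCm38.p6, 250 bases before to 50 after a gene's start) for the 9 members in that table. The E-box CACGTG, a palindrome that MYC and MAX among other factors can bind, was present in the promoters of Atic, Paics and Impdh2, and in 7.15% of all 32851 promoters of the same length. The 3 windows below are all the E-box matches found in the members' promoters. Capitals mark the E-box, and each window is on the plus strand of GRCm39, at chr1:71596296-71596325, chr5:77098934-77098963 and chr9:108437513-108437542.
Atic: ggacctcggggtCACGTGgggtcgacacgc
Paics: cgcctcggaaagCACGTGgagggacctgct
Impdh2: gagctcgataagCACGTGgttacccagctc
Counted from the gene start in the RefSeq table, the E-box starts at position -7 for Atic, at -203 for Paics and at -110 for Impdh2. The Ensembl gene models used for the loci above differ from these starts: there the Atic window overlaps an exon of Atic, the Impdh2 window an exon of Impdh2 and the Paics window an exon of Ppat. The amino acid response element, searched as TGATGNAA on both strands, was in 0 of the 9 members' promoters and in 3.97% of all promoters. These matches describe letters in the windows and were not tested for binding.

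Depth ranged from 51409 UMI counts, in resting mtDNA NZB replicate 2, to 6449395, and the next smallest library, activated mtDNA NZB replicate 1, held 641467. In the smallest library 1 UMI is worth 16.9 CPM (UMI counts scaled by TMM library size), and the 10 members together held 33 UMIs. Il2ra, the CD25 chain of the IL-2 receptor against which the cells had been selected, followed the activation label. It was at 1.88 to 4.05 CPM in resting and 42.0 to 118 CPM in activated mtDNA B6 libraries, and at 0 to 5.71 and 54.4 to 180 CPM in mtDNA NZB libraries. Of the 7 activation markers 4 rose in each haplotype (Il2ra, Tnfrsf4, Tnfrsf9 and Mki67), Tfrc and Irf4 did not pass, and Cd69, known as an early marker, changed by -3.73 and -3.62. All 8 T cell identity markers had counts in every group. RNA of other cell types was present as well and differed between states. The 7 B cell markers summed to 8553 to 13138 CPM in resting and 2346 to 6106 CPM in activated mtDNA B6 libraries, and to 5706 to 17412 and 1104 to 5863 CPM in mtDNA NZB libraries, and myeloid, granulocyte precursor, neutrophil and erythroid sums also had lower medians in the activated groups. Of the B cell markers 1 fell by the test in each haplotype and none rose, whereas the 7 myeloid and 8 erythroid markers all fell in both. Other sums were higher after activation. Both CD8 T cell markers rose in each haplotype, with median sums of 68.6 and 277 CPM in mtDNA B6 and 51.8 and 164 CPM in mtDNA NZB libraries, and NK cell and platelet sums had higher medians in the activated groups. Of the 2 NK cell markers tested, however, 1 rose and 1 fell in each haplotype, so the NK cell markers had no shared direction. Of the 3 platelet markers tested, 2 rose in each haplotype and 0 fell. At rest the erythroid sum had a median of 1975 CPM in mtDNA B6 and 318 CPM in mtDNA NZB libraries, with 1 of 8 markers called lower in mtDNA NZB, and 2 of 6 resting T cell markers were called higher there, but no gene at all was called at rest without resting mtDNA NZB replicate 5 or without resting mtDNA B6 replicate 4. In resting libraries the B cell sum was above the T cell identity sum of 3068 to 5420 CPM. Bulk RNA cannot separate fewer cells of a type from less RNA per cell, and the part of this RNA in the members' changes was not tested. A second count table was taken as reads before UMI correction, which the labels do not state. By its ratio to the UMI counts, here called reads per UMI, libraries fell into 3 sets (1.88 to 1.96, 2.11 to 2.24 and 2.68 to 2.80), and in mtDNA B6 cells these sets nearly coincide with state, since only the middle set holds both, with 4 resting libraries and 1 activated library.

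In mtDNA B6 cells, activation raised the entry enzyme Ppat, the ring-building enzyme Paics and the guanine-branch isozyme Impdh2, and lowered Impdh1, Dhodh and Pnp. Thus 3 of 10 members rose and 3 fell at an adjusted p of at most 0.05, where 22.4% of all genes tested rose and 24.5% fell. None changed by a log2 of 1 or more, a size at which 7.06% of all genes rose. The median change of the members was 0.23 on the log2 scale, against -0.03 for all genes. In mtDNA NZB cells 6 of 10 rose (Gart, Paics, Atic, Impdh2, Cad and Umps) and 1 fell (Impdh1), where 25.2% of all genes rose and 28.4% fell. Of these only Umps passed a log2 change of 1, against 9.46% of all genes. The median change was 0.65, against -0.06 for all genes. Paics and Impdh2 rose in both haplotypes and Impdh1 fell in both, and no member was called in opposite directions.

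**Figure D1:**
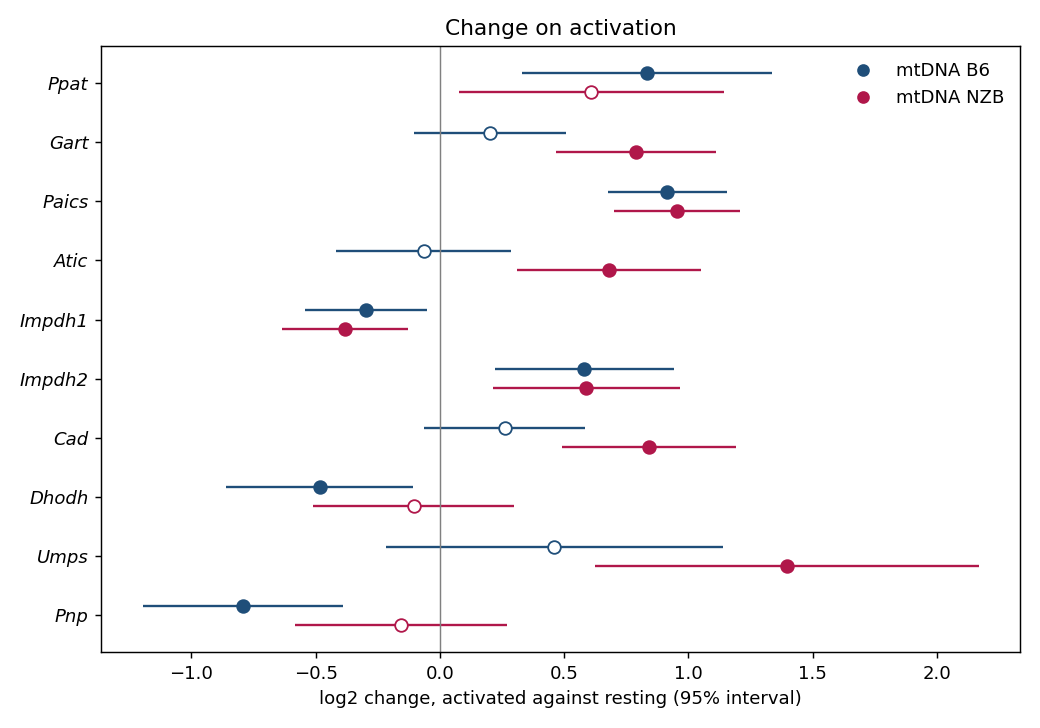
Log2 change of each gene from resting to activated cells (horizontal axis) in mtDNA B6 (blue) and mtDNA NZB (red), with 95% intervals from edgeR's quasi-likelihood fit over 24 libraries. Filled points passed an adjusted p of 0.05; Paics lies near 0.9 in both haplotypes, whereas Gart, Atic and Cad are filled in mtDNA NZB cells alone.

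Paics, which joins a pair of consecutive steps of ring assembly, had the smallest adjusted p among the members in both haplotypes. In mtDNA B6 cells it was at 95.7, 111 and 124 CPM (lowest, median, highest) at rest and at 161, 213 and 226 CPM after activation, with no overlap. The 1.89-fold rise (log2 0.92, SE 0.12) had an adjusted p of 6.16e-07. With mtDNA NZB it was at 82.0, 101 and 169 CPM at rest and at 152, 199 and 227 CPM after activation. The only overlap came from the highest resting value, 10 UMIs in the smallest library, and without that library the highest resting value was 111 CPM. The rise was 1.94-fold (log2 0.96, SE 0.12, adjusted p = 5.50e-07).

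Ppat, the head-to-head neighbour of Paics and the committed step of the route, was the lowest of the purine-route members in counts, with 1454 UMIs over all libraries. In mtDNA B6 cells its lowest, median and highest values were 8.61, 12.8 and 16.8 CPM at rest and 15.5, 22.3 and 31.0 CPM after activation. Only the lowest activated library overlapped the resting ones, and the rise was 1.78-fold (log2 0.83, SE 0.25, adjusted p = 0.00694). With mtDNA NZB, Ppat was at 0, 11.4 and 33.9 CPM at rest and at 17.9, 25.4 and 31.6 CPM after activation. The resting value of 33.9 CPM, in replicate 5, was above every activated library, and the change of 0.61 (SE 0.26) missed the threshold with an adjusted p of 0.0502. Without that replicate the change was 1.01, with an adjusted p of 0.000423.

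Gart, which carries 3 activities of early ring assembly, and Atic, which carries the closing steps, moved in mtDNA NZB cells only to an extent that passed the test. Gart was at 116, 130 and 164 CPM in resting and 126, 155 and 194 CPM in activated mtDNA B6 cells, groups that overlap (log2 change 0.20, 95% interval -0.10 to 0.51, adjusted p = 0.274). The mtDNA NZB values were 33.9, 96.4 and 116 CPM at rest and 132, 153 and 244 CPM after activation, with every activated library above every resting one. That rise was 1.73-fold (log2 0.79, SE 0.16, adjusted p = 1.50e-04). Atic was at 87.7, 109 and 139 CPM in resting and 83.5, 102 and 129 CPM in activated mtDNA B6 cells, with a log2 change of -0.07 (interval -0.42 to 0.29, adjusted p = 0.776). With mtDNA NZB, Atic was at 33.9, 87.7 and 97.1 CPM at rest and at 74.0, 147 and 184 CPM after activation. Its rise was 1.60-fold (log2 0.68, SE 0.18, adjusted p = 0.00247), with 1 activated library, replicate 6, inside the resting range.

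The isozymes of the guanine branch moved in opposite directions. Impdh2 was at 76.8, 84.4 and 100.2 CPM in resting and 117, 126 and 151 CPM in activated mtDNA B6 cells, with no overlap, a 1.5-fold rise (log2 0.58, SE 0.18, adjusted p = 0.00829). The mtDNA NZB libraries held it at 64.8, 71.9 and 169 CPM at rest and at 111, 154 and 173 CPM after activation, also 1.5-fold (log2 0.59, SE 0.18, adjusted p = 0.00862). Resting replicates 5 and 6, at 169 and 128 CPM, overlapped the activated libraries, while the other resting libraries were at 73.3 CPM or less. Impdh1 was at 129, 152 and 169 CPM in resting and 97.5, 123 and 139 CPM in activated mtDNA B6 cells, and fell by 0.30 on the log2 scale (SE 0.12, adjusted p = 0.0427). With mtDNA NZB it was at 136, 179 and 234 CPM at rest and at 123, 139 and 184 CPM after activation, and fell by 0.38 (SE 0.12, adjusted p = 0.0110). The groups overlapped in both haplotypes.

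A ratio of both isozymes within a library does not depend on its scaling. It recombines counts already tested gene by gene above, in genes chosen with earlier results known, so its p-values are not independent support. The library set by reads per UMI was not a term in this test, and in mtDNA B6 cells the sets nearly coincide with state. The log2 ratio of Impdh2 to Impdh1 counts (0.5 added to each) was -0.77 ± 0.26 (SD, n = 6) in resting and 0.11 ± 0.22 (SD, n = 6) in activated mtDNA B6 libraries. The difference of 0.89 had an adjusted p of 0.00433 (two-sided exact permutation test, adjusted over 4 comparisons), which rests on the smallest p the design allows, 0.00216. In mtDNA NZB libraries the ratio was -0.99 ± 0.50 (SD, n = 6) at rest and 0.06 ± 0.17 (SD, n = 6) after activation, a difference of 1.05 (exact permutation test, adjusted p = 0.00433). Every resting library of both haplotypes, at -1.54 to -0.35, lay below every activated library, at -0.16 to 0.36. The haplotypes differed by -0.22 at rest (exact permutation test, adjusted p = 0.488), by -0.63 at rest without mtDNA NZB replicates 2, 5 and 6 (adjusted p = 0.0159, exact permutation test, a choice made after the values were seen), and by -0.05 after activation (adjusted p = 0.654, exact permutation test). Adding the counts of Impdh2-ps to Impdh2 gave differences of 0.86 and 1.01 on activation. This cannot bring back reads that match both and were counted for neither. How such reads were handled is not given, and their part in the ratio was not tested.

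**Figure D2:**
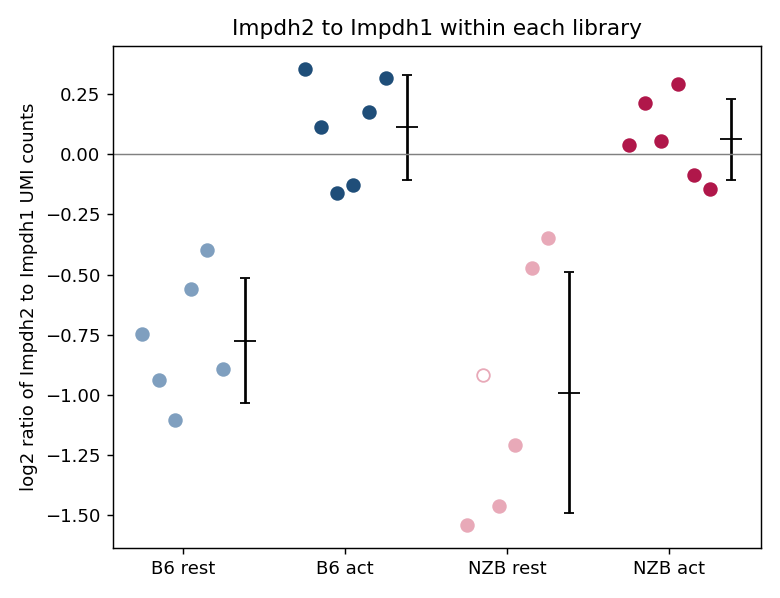
Log2 ratio of Impdh2 to Impdh1 UMI counts (vertical axis) in each library of the 4 groups; black bars are the mean and SD, and the open point is the library with 51409 UMI counts. Resting libraries lie between -1.54 and -0.35 and activated libraries between -0.16 and 0.36.

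Among the pyrimidine enzymes, Cad, the large multifunctional enzyme that opens the route, was at 72.8, 90.6 and 119 CPM in resting and 94.7, 112 and 143 CPM in activated mtDNA B6 cells. These groups overlapped, and the log2 change of 0.26 (interval -0.06 to 0.59) did not pass (adjusted p = 0.179). With mtDNA NZB, Cad was at 47.7, 71.2 and 84.7 CPM at rest and at 86.7, 112 and 163 CPM after activation, without overlap, a 1.79-fold rise (log2 0.84, SE 0.17, adjusted p = 1.77e-04). The medians of the haplotypes were 112 CPM each after activation.

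Dhodh, the mitochondrial step, was the exception in this route. It was at 21.3, 24.6 and 27.8 CPM in resting and 12.5, 18.2 and 21.4 CPM in activated mtDNA B6 cells, and fell by 0.48 on the log2 scale (SE 0.18, adjusted p = 0.0322). Only the lowest resting library, at 21.3 CPM, fell below the highest activated one, at 21.4 CPM. The mtDNA NZB libraries held it at 12.4, 20.8 and 26.2 CPM at rest and at 13.5, 18.9 and 27.4 CPM after activation, with a change of -0.10 (interval -0.51 to 0.30, adjusted p = 0.678). Umps, the closing enzyme, had only 283 UMIs over all 24 libraries, 0 to 44 in each. It was at 0.752, 2.92 and 4.43 CPM in resting and 2.97, 3.60 and 6.40 CPM in activated mtDNA B6 cells (log2 change 0.46, interval -0.22 to 1.14, adjusted p = 0.261). With mtDNA NZB it was at 0, 2.08 and 2.81 CPM at rest, from 29 UMIs in all, and at 2.29, 6.04 and 8.63 CPM after activation. The rise of 2.63-fold (log2 1.40, SE 0.38, adjusted p = 0.00283) was the largest fold of any member and rested on the fewest molecules.

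Pnp, which splits inosine and guanosine into base and sugar phosphate and whose inherited loss causes T cell deficiency, had the largest fitted fall of any member in mtDNA B6 cells, except with the library set as a term (-0.53, against -0.55 for Dhodh). It was at 64.1, 77.8 and 103 CPM in resting and 34.9, 49.6 and 53.5 CPM in activated mtDNA B6 cells, with every activated library below every resting one, and fell by 0.79 on the log2 scale (SE 0.20, adjusted p = 0.00172). The mtDNA NZB values were 16.9, 45.4 and 91.1 CPM at rest and 44.9, 54.1 and 66.2 CPM after activation (log2 change -0.16, interval -0.58 to 0.27, adjusted p = 0.543). Resting replicates 5 and 6, at 89.4 and 91.1 CPM, lay above all activated libraries, and replicates 1 and 3 lay below all activated libraries, and replicate 4, at 46.7 CPM, below all but the lowest. The sign of the change depended on the resting libraries used, with values of 0.01 without replicate 5, 0.06 over 21 libraries and 0.37 (adjusted p = 0.0881) without replicates 2, 5 and 6. Within each of the 3 sets by reads per UMI it was above 0, from 0.04 to 0.41 in log2(CPM + 1). Its neighbour and near-copy Pnp2 held 173 UMIs in all, and fell by 1.79 in mtDNA B6 cells (adjusted p = 0.00181), with a change of 0.08 in mtDNA NZB cells (adjusted p = 0.920).

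Leaving out the smallest library, activated and resting values did not overlap for Paics and Impdh2 (activated above) and Pnp (activated below) in mtDNA B6 cells, where 15.4% of all genes lay wholly above and 16.4% wholly below. With mtDNA NZB they did not overlap for Gart, Paics and Cad, all activated above, where 14.1% of all genes lay above and 13.9% below. The falls in mtDNA B6 cells depended more on single libraries than the rises. Leaving out each of the 24 libraries in turn, Ppat, Paics and Impdh2 always rose, whereas Impdh1 lost its call in 9 cases and Dhodh in 6. Pnp kept its call in each, and it was the only faller left without resting mtDNA NZB replicate 2, activated mtDNA B6 replicate 1 or resting mtDNA B6 replicate 6. With the set of libraries by reads per UMI as a term, Ppat, Paics and Impdh2 still rose, and none of Impdh1 (-0.32, adjusted p = 0.119), Dhodh (-0.55, adjusted p = 0.0920) and Pnp (-0.53, adjusted p = 0.103) passed in edgeR's quasi-likelihood test. The changes of Impdh1 and Dhodh were thus no smaller than without the term, and that of Pnp was. Within the middle set, the single activated mtDNA B6 library differed from the mean of 4 resting ones by -0.57 for Pnp, -0.43 for Dhodh, -0.18 for Impdh1, 1.04 for Paics, 1.3 for Ppat and 0.83 for Impdh2, in log2(CPM + 1). The set and the state cannot be told apart for the remaining mtDNA B6 libraries. For mtDNA NZB all 3 sets hold both states, with 2 activated libraries in each, a single resting library in the first and in the second, and 4 resting libraries, the smallest among them, in the third, and the activated mean was above the resting value in each set for Gart (0.62 to 1.04), Paics (0.61 to 1.15), Impdh2 (0.55 to 1.26), Cad (0.67 to 0.79), Atic (0.22 to 1.13) and Umps (0.95 to 1.41), and below it for Impdh1 (-0.52 to -0.25).

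**Figure D3:**
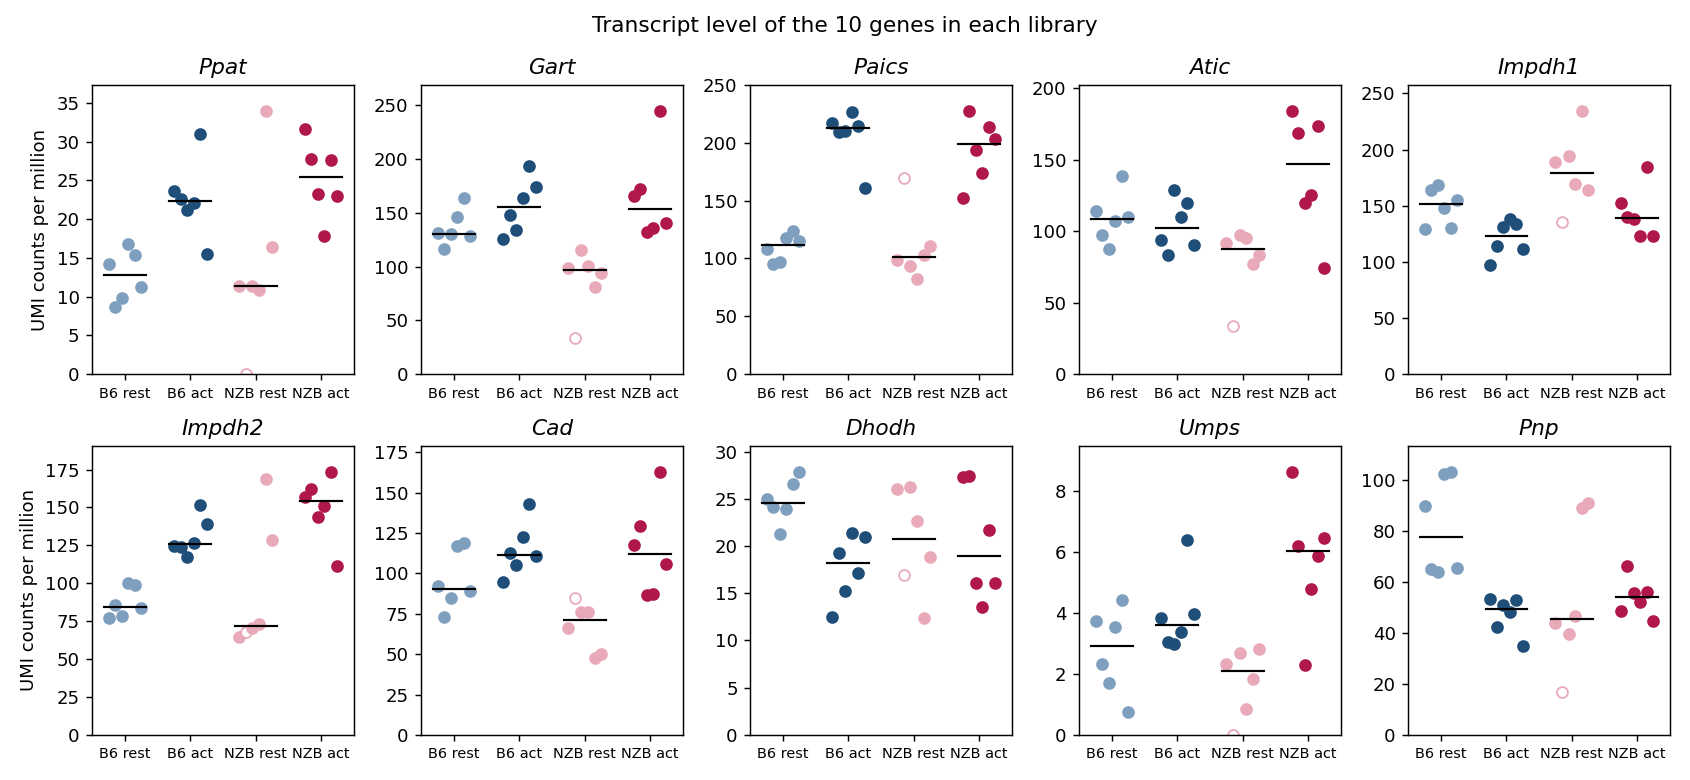
CPM (vertical axis, from 0) of each gene in every library of resting (rest) and activated (act) mtDNA B6 and mtDNA NZB cells; black lines are medians and the open point is the library with 51409 UMI counts. Resting mtDNA NZB libraries form a low group and a pair of high points, replicates 5 and 6, for Impdh2 and Pnp.

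The second question is whether haplotype set the members' levels. At rest 0 of 10 members differed between mtDNA NZB and mtDNA B6 cells by edgeR's quasi-likelihood test, where 2.76% of all genes did. That background of 292 genes fell to 0 without resting mtDNA NZB replicate 5 or resting mtDNA B6 replicate 4, to 2 without replicate 1 of the latter group, to 8 without its replicate 3, to 27 without its replicate 5, and to 1 with the library set as a term, and rose to at most 587 with another single library left out. At an unadjusted p under 0.05 there were 4 members and 2196 of all genes, and DESeq2 called 0 members and 180 genes. Cad (log2 difference -0.58, interval -0.93 to -0.23, adjusted p = 0.0570) and Gart (-0.51, interval -0.83 to -0.19, adjusted p = 0.0674) were nearest to the threshold, both with lower means in mtDNA NZB cells. The part of the erythroid and resting T cell markers, which also differed at rest, was not tested. Under a stricter filter on low counts both passed, Cad with an adjusted p of 0.0451 and Gart with 0.0482, among 345 genes called. Impdh1 was higher in mtDNA NZB cells by 0.32 (interval 0.07 to 0.58, adjusted p = 0.128) and Pnp lower by a log2 difference of -0.44 (interval -0.86 to -0.02, adjusted p = 0.217). Without resting mtDNA NZB replicates 2, 5 and 6, a choice made after the values were seen, Pnp was the only member that passed, with -0.94 and an adjusted p of 0.0120, and Impdh2 stood at -0.35 (adjusted p = 0.177).

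After activation 0 of 10 members differed between haplotypes, and 0% of all genes did (edgeR's quasi-likelihood test). Among all genes 327 had an unadjusted p under 0.05, and among the members 1 did, Atic. DESeq2 called 0 members. Differences ran from -0.08 for Paics (interval -0.32 to 0.15) to 0.47 for Umps (interval -0.19 to 1.12), and Atic was at 0.42 (interval 0.06 to 0.77, adjusted p = 1). Cad stood at 0.00, with an interval of -0.33 to 0.33.

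The response to activation, compared between haplotypes by an interaction term, differed for 0 of 10 members, and for 0% of all genes. Unadjusted p-values were under 0.05 for 4 members and 1512 genes, and DESeq2 called 0 members and 1 gene. These 4 were Atic (0.75 higher log2 response in mtDNA NZB cells, interval 0.24 to 1.25, adjusted p = 0.218), Pnp (0.64, interval 0.05 to 1.22, adjusted p = 0.317), Gart (0.59, interval 0.14 to 1.03, adjusted p = 0.238) and Cad (0.58, interval 0.11 to 1.06, adjusted p = 0.259). The fitted difference between haplotypes, which passed in neither state for these genes, was -0.51 at rest and 0.08 after activation for Gart, -0.58 and 0.00 for Cad, and -0.33 and 0.42 for Atic. The difference was 0.04 for Paics (interval -0.30 to 0.39) and 0.01 for Impdh2 (interval -0.51 to 0.53). For Impdh2 the value moved with the resting libraries used, to 0.26 without resting mtDNA NZB replicate 5 (adjusted p = 0.729) and to 0.52 when replicates 2, 5 and 6 were left out (adjusted p = 0.233), where Impdh2 rose by 1.15 in mtDNA NZB cells. Thus Gart, Atic, Cad and Umps passed the test of activation in mtDNA NZB cells and not in mtDNA B6 cells, but the difference itself did not pass for any of them. Over 21 libraries, without mtDNA NZB resting replicates 2 and 6 and activated replicate 6, 113 genes passed the test of the difference. Atic was the only member among them (0.83, adjusted p = 0.0488). With the library set as a term over these libraries, 0 genes passed. A replicate block by the number in the sample descriptions left 8 genes there, and Pnp as the only member (1.13, adjusted p = 0.0381, edgeR's quasi-likelihood test). With that block over all libraries, Pnp did not pass (0.77, adjusted p = 0.854).

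The members did not vary as 1 block among the resting mtDNA NZB libraries. In the resting mtDNA B6 group they moved together more: every member except Impdh1 was above the group mean in replicate 5. In replicates 2 and 3 of that group every member except Impdh1 was below it. Resting mtDNA NZB replicates 5 and 6 were above the mean of resting mtDNA B6 cells by 0.95 and 0.56 for Impdh2 and by 1.39 and 0.39 for Ppat, in log2(CPM + 1), and below it by -0.97 and -0.90 for Cad and -0.73 and -0.52 for Gart. Replicates 1, 3 and 4 were below that mean for Impdh2, by -0.42 to -0.24 and also below it for Pnp. Replicate 6 also had the highest granulocyte precursor sum of all libraries, 16122 CPM, whereas replicate 5 had the lowest of its group, 385 CPM, and the lowest B cell sum of its group, 5706 CPM. The part of this RNA in the members' values was not tested.

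**Figure D4:**
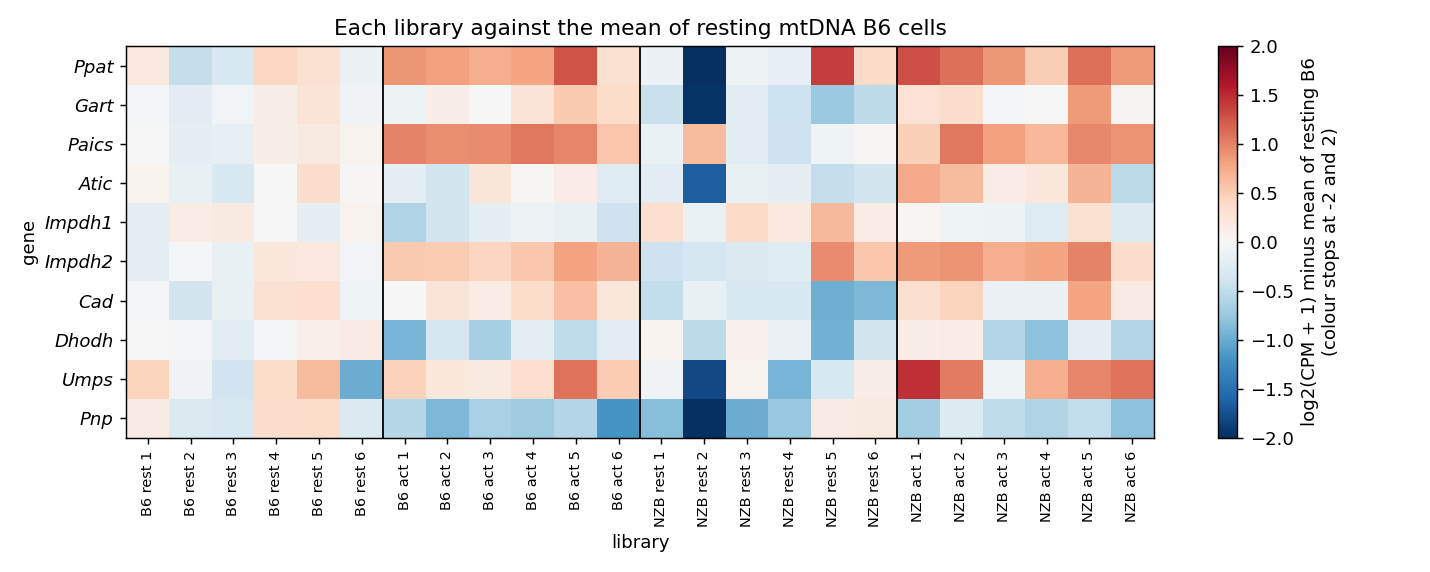
Difference of log2(CPM + 1) of each gene (rows) in each library (columns) from the mean of resting mtDNA B6 libraries; red is higher, blue is lower, and the colour stops at -2 and 2. Paics and Impdh2 are red in all activated libraries, and resting NZB libraries 5 and 6 are red for Ppat and Impdh2 and blue for Cad and Gart.

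Together the members held 0.0780 ± 0.0113% (SD, n = 6) of UMI counts in resting and 0.0972 ± 0.00888% in activated mtDNA B6 libraries, and 0.0676 ± 0.00276% and 0.103 ± 0.0157% in mtDNA NZB libraries. These shares are a description and were not tested, since the members were chosen with results known. The range was 0.0663 to 0.0956% in resting and 0.0896 to 0.111% in activated mtDNA B6 libraries, which overlap, and 0.0642 to 0.0702% and 0.0835 to 0.122% in mtDNA NZB libraries, which do not.

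The neighbouring routes of nucleotide metabolism were taken as lists. Deoxynucleotide enzymes, which turn ribonucleotides into DNA precursors, had larger changes than the synthesis genes: of 12 tested of 13 listed, mtDNA B6 cells showed 8 rises and 2 falls (median log2 change 1.07) and mtDNA NZB cells 9 rises and 2 falls (median 1.59). The background for this and the following lists is the share of all genes that rose, 22.4% with mtDNA B6 and 25.2% with mtDNA NZB, and the share that fell, 24.5% and 28.4%. Tyms, which makes thymidylate, was at 28.6 ± 10.5 CPM (SD, n = 6) in resting and 102 ± 30.5 CPM in activated mtDNA B6 libraries, which did not overlap, a log2 change of 1.81 (SE 0.29, adjusted p = 1.31e-05, edgeR). With mtDNA NZB it went from 16.4 ± 8.95 to 120.2 ± 36.2 CPM, again without overlap, a change of 2.86 (SE 0.33, adjusted p = 1.00e-07). Rrm2, the regulated subunit of ribonucleotide reductase, rose by 1.86 and 2.70, and Tk1, the thymidine kinase of dividing cells, by 1.53 and 2.37. The 2 fallers, named after their values were seen, were Rrm2b (-0.91 and -1.52) and the mitochondrial thymidine kinase Tk2 (-1.11 and -0.87), which supply deoxynucleotides outside S phase. These lists were chosen with earlier results known, so their counts are a description.

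**Figure D5:**
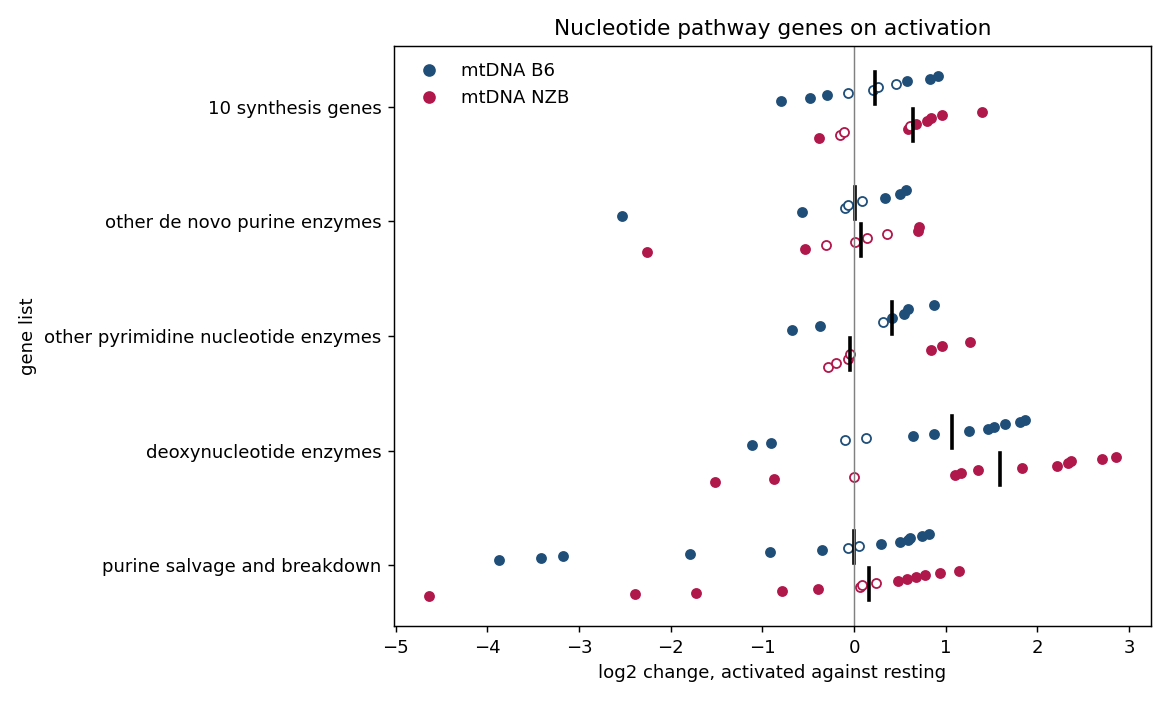
Log2 change from resting to activated cells (horizontal axis) of the 10 synthesis genes and of each tested gene of the other lists, in mtDNA B6 (blue) and mtDNA NZB (red); filled points passed an adjusted p of 0.05 and black bars are list medians. Deoxynucleotide enzymes have medians of 1.07 and 1.59, and the 10 synthesis genes medians of 0.23 and 0.65.

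The remaining de novo purine enzymes showed no shared direction, with 3 rises and 2 falls of 8 tested in mtDNA B6 cells (median 0.01) and 2 and 2 in mtDNA NZB cells (median 0.07). The rises in mtDNA B6 cells dropped to 1 without activated mtDNA B6 replicate 4 or without replicate 5, and to 0 with the library set as a term. In mtDNA NZB cells they dropped to 1 without activated replicate 1, 2 or 5 or resting replicate 6, and the falls went to 1 without resting replicate 1 or 3 and to 3 without resting replicate 5 or 6. Adsl, which acts in ring assembly and again on the way to AMP, rose by 0.33 (adjusted p = 0.0238) and 0.70 (adjusted p = 4.70e-05). Adss1, the adenylosuccinate synthase best known from muscle, changed by -2.54 (adjusted p = 8.67e-05) and -2.26 (adjusted p = 0.000523). Gmps, which completes guanosine monophosphate after Impdh, was listed at 0 in all libraries and was not tested. Other pyrimidine enzymes rose in 4 and fell in 2 of 7 tested in mtDNA B6 cells (median 0.41) and rose in 3 and fell in 0 in mtDNA NZB cells (median -0.04). The 2 falls became 1 in 10 of the 24 fits with a single library left out, namely activated mtDNA B6 replicates 1, 2, 5 and 6, resting mtDNA B6 replicates 2 to 6 and resting mtDNA NZB replicate 2. With a replicate block by the number in the sample descriptions, this list had 2 rises and 1 fall in mtDNA B6 cells. Here the uridine-cytidine kinase Uck2 (0.87 and 0.96) and the CTP synthase Ctps1 (0.41 and 0.84) rose in both. Adsl, Uck2, Ctps1 and the salvage enzymes below were named after their values were seen.

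Purine salvage and breakdown genes went both ways, with 6 rises and 6 falls of 14 tested in mtDNA B6 cells and 6 rises and 5 falls in mtDNA NZB cells. In the latter the falls were 3 without resting replicate 6 and 1 in a fit of the 12 mtDNA NZB libraries alone, and in mtDNA B6 cells the rises were 4 without resting replicate 2 or 4. The salvage enzymes Hprt1 (0.82 and 1.15) and Ada (0.74 and 0.94) rose in both haplotypes. The largest falls were those of Gda, the guanine deaminase (-3.88 and -4.64, with 6 and 2 UMIs in the activated groups), and of the AMP deaminases Ampd1 (-3.41 and -2.39) and Ampd3 (-3.18 and -1.72). Their levels fell together with the summed myeloid and erythroid markers given above, whose part in these falls was not tested. With the set of libraries as a term, mtDNA B6 cells showed 0 rises and 1 fall in the de novo purine list, 2 rises and 1 fall in the pyrimidine list (also 2 and 1 in the second count table) and 3 rises and 3 falls in the salvage list. Of 8 pyrimidine salvage and breakdown genes only Nt5c3 passed the filter, with changes of -0.08 and -0.22 that did not pass the test.

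The 5 genes whose profile of log2(CPM + 1) over the 23 libraries of at least 500000 UMI counts lay nearest to the mean profile of the members were Ybx1, Psmf1, Nop2, Hnrnpa2b1 and Snrpb, with root mean square differences of 0.10 to 0.12. The members' own differences from their mean profile ran from 0.21 for Gart to 0.48 for Pnp. The 5 genes were picked as the nearest of all genes tested, so setting these ranges side by side does not measure how alike the members are.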

How the data were processed

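The 24 libraries are bulk MARS-seq, which reads the 3′ end of RNA and tags each molecule with a UMI. According to the methods of the study, the authors trimmed reads with cutadapt, dropped reads under 30 bases, aligned them with STAR to the last 1000 bases of genes in GRCm39 (Ensembl 106), counted with HTSeq and corrected UMIs for saturation. The deposited table of UMI-corrected counts was used as deposited, and a second deposited table of counts, which the labels do not define, was used as an alternative and taken as reads for the ratio to UMIs. Strand in counting and tool versions are not given in the sources used here, and 1 column that matched no sample was left out.

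Counts were filtered with filterByExpr (minimum count 10), scaled by TMM and tested with edgeR's quasi-likelihood test (edgeR 4.0.16, R 4.3.3) in 1 fit over the 4 groups, with Benjamini-Hochberg adjustment over 10566 genes. A gene rose or fell at an adjusted p of at most 0.05, with no fold threshold. Intervals are 95%. The members and lists were chosen with earlier results of these data known. From each list, genes called at a log2 change of at least 1 with the same sign in both haplotypes were named, at most 3 rises and 3 falls, with exceptions stated. The isozyme ratio was tested by exact permutation. Code was tested on simulated counts. Alternatives were DESeq2 1.42.0, other scaling, filters, library subsets, a library set term and a replicate block. RNA input is 30 ng in the labels and 60 ng in the methods. The comparisons share libraries, so their results are not independent.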

Additional observations from a re-analysis of the deposited data

Results flagged for a closer look

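Within groups of 6 libraries, 5 of 48 groups checked held a library whose gap to its nearest neighbour, divided by the range of the group, passed Dixon's 95% critical value of 0.625. Chance alone gives about 1 in 20 groups. For Atic, resting mtDNA NZB replicate 2 was at 33.9 CPM and its nearest neighbour at 77.0 CPM. For Paics the same library was at 169 CPM, from 10 UMIs, against 111 CPM in the next highest. That library is the smallest, with 51409 UMI counts. Gart was at 244 CPM in activated mtDNA NZB replicate 5, with the next library at 172 CPM. Paics was at 161 CPM in activated mtDNA B6 replicate 6, below the nearest library at 210 CPM, and Umps was at 6.40 CPM in activated mtDNA B6 replicate 5, above the nearest at 3.96 CPM.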

How the results depend on the processing

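In mtDNA B6 cells the 3 rises were found under every alternative except a log2 threshold of 1, which left 0. The 3 falls became 1 with DESeq2 and 1 with no filter on low counts, 0 with the library set as a term (also 0 over 21 libraries; Impdh1 at -0.32 and Dhodh at -0.55 were no smaller), 0 at a log2 threshold of 1, and 1 to 3 with 1 library left out. In mtDNA NZB cells 5 to 7 members rose under the alternatives, and 1 at a log2 threshold of 1, where 0 fell. At rest 0 members differed between haplotypes, against 2 with the stricter filter, 1 without resting mtDNA NZB replicates 2, 5 and 6 (chosen after seeing the data), and 0 to 2 with 1 library left out (2 without activated mtDNA NZB replicate 5 or resting replicate 3, and 1 without resting mtDNA NZB replicate 2 or 4 or resting mtDNA B6 replicate 2). The difference of responses gave 1 member over 21 libraries, and 0 genes with the library set as a term over them. A replicate block by the number in the sample descriptions, over the same 21 libraries, also gave 1, Pnp (1.13, adjusted p = 0.0381). Over all libraries that replicate block gave 3 rises and 3 falls in mtDNA B6 cells and 5 rises in mtDNA NZB cells, and 7 by the number in the titles. Whether these numbers pair libraries is open: the methods say that isolated cells were divided into resting and activated, the labels do not define the number, and correlations of 9 pairs ran from -0.158 to 0.253, with 3 over 0.1 and 2 libraries nearest to their own number. The isozyme ratio at rest was -0.63 (exact permutation test, adjusted p = 0.0159) without resting mtDNA NZB replicates 2, 5 and 6, and the summed share in resting mtDNA NZB cells was 0.0633% in the second table. Of all genes, 292 differed at rest, 180 with DESeq2, 662 over 21 libraries, 43 in the second table and 72 with the block by title number. There was 1 with the library set as a term, 123 without resting mtDNA NZB replicates 2, 5 and 6, 0 in the 12 resting libraries alone, and 0 to 587 with 1 library left out. The cause of these shifts was not tested. Depth limits Umps most.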
